A study of Mus musculus with 4 samples.

Results

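The genes Meioc, Ythdc2, Rbm46, Dazl, Zglp1, Dmrt1 and Bnc2, which act in the competence of germ cells for meiosis and in their entry into it, were examined in ATAC-seq peak lists of mouse female germ cells. These 7 genes were chosen by name for their known roles, out of 21887 protein-coding genes of the nuclear genome. For each gene, peaks were taken within 1 kb either side of the annotated gene start and gene end, and in the gene plus 20 kb either side. ATAC-seq marks open chromatin by letting a transposase insert sequencing adapters into accessible DNA.

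The cells came from female C57BL/6 embryos at embryonic day 15.5 and were sorted by an Oct4-EGFP reporter, which all 4 libraries share. There were 2 groups of 2 libraries, Control (Control 1 and Control 2) and Snf5 CKO (Snf5 CKO 1 and Snf5 CKO 2), the latter with a conditional knockout of Snf5. Snf5, encoded by Smarcb1, belongs to the core of SWI/SNF, which moves and evicts nucleosomes. The sources used here do not give the Cre driver, the alleles of the controls or whether replicates came from separate embryos, so the spread between replicates may be technical.

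Germ cells of the fetal ovary leave mitosis and enter meiotic prophase after signals from the gonad. The RNA-binding protein DAZL makes the cells competent to respond, and ZGLP1, a GATA-like zinc finger protein, acts downstream of BMP signals to start the oogenic programme. DMRT1, a DM-domain transcription factor, promotes Stra8 transcription in the fetal ovary, and STRA8 with its partner MEIOSIN activates meiotic genes. MEIOC, the RNA helicase YTHDC2 and the RNA-binding protein RBM46 then work together on mitotic and other transcripts so that cells do not slip back into division. BNC2 is a zinc finger protein that, in male germ cells, holds off premature meiotic entry. The series title names SWI/SNF, meiotic gene activation and promoter remodelling, and the comparison here asks whether chromatin at these 7 genes differed between the genotypes.

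The lists held 28625 to 45422 peaks, the fewest in Snf5 CKO 2 and the most in Snf5 CKO 1, and the read depth of each library is unknown. Smarcb1 had a peak at a gene end in each control but in no Snf5 CKO library, a peak call that does not measure the deleted exons. Of 9 germ cell markers, 8 were open at a gene end in each control and 9 in each Snf5 CKO library, Tfap2c being the one added. The part of these differences in the results below was not tested. Among markers of other cell types, 7 of 10 supporting cell genes had a peak in every library and Amhr2, Gata4 and Nr5a1 had none in any. Stroma and mesenchyme markers had peaks at 5 of 10 genes in 3 libraries and at 3 in Snf5 CKO 2, with Pdgfra, Pdgfrb, Col3a1, Dcn and Lum at none. Endothelial markers had peaks at 1 or 2 of 6 genes and blood markers at 2 or 3 of 7, with Cdh5 and Ptprc at none.

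RefSeq promoters of GRCm38.p6, the assembly behind mm10, were matched for 5 of the 7 genes. Ythdc2 and Dmrt1 had no entry in the table. The 4 promoters that lay in a peak, wholly or in part, in each of the 4 libraries are printed because they show the DNA under the start peaks. Each runs from 250 bases before the start site to 50 after it, on the strand of the gene, and capitals mark every match, on either strand, to any of the 7 motifs spelled out in the text after them.
Meioc, chr11:102665335-102665634, plus strand: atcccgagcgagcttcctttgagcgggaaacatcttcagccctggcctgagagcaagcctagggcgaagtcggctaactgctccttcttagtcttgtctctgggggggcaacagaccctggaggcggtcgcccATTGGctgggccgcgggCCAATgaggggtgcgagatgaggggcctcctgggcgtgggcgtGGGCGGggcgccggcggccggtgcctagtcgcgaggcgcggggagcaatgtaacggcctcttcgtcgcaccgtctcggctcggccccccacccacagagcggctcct
Rbm46, chr3:82876434-82876733, minus strand: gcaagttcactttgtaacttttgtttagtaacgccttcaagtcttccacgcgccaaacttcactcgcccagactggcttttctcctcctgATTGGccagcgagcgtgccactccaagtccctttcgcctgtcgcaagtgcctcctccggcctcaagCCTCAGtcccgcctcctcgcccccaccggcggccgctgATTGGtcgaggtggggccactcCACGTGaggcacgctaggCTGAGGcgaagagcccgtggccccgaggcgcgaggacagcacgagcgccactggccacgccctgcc
Dazl, chr17:50293571-50293870, minus strand: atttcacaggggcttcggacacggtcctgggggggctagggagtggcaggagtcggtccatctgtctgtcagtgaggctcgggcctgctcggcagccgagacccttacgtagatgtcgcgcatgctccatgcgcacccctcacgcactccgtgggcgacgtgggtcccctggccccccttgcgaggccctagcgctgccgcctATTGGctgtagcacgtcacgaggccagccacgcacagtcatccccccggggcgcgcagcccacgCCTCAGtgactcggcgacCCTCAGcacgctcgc
Zglp1, chr9:21067044-21067343, minus strand: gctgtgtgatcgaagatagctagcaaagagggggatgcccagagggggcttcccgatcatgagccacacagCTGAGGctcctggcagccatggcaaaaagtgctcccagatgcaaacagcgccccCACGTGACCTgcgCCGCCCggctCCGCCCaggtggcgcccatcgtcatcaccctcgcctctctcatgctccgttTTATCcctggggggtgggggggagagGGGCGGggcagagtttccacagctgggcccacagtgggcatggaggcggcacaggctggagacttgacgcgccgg

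In all 4 promoters of this set, all 300 bases lay in a peak in Control 1, Control 2 and Snf5 CKO 1. In Snf5 CKO 2 this held for Meioc and Rbm46, while 280 bases of the Dazl promoter and 219 bases of the Zglp1 promoter were covered. The Zglp1 match to CCTCAG, at -179 to -174, lay outside the Snf5 CKO 2 peak. Meioc, Rbm46 and Dazl had CpG-rich promoters, with ratios of observed to expected CpG of 0.805, 0.840 and 0.795 against a median of 0.384 over all 32851 promoters in the table. Zglp1 had 0.527. The Bnc2 entry of the table was of another kind. It lies 65832 bp inside the annotated gene, at chromosome 4, 84610148 to 84610447, holds no CpG and none of the 7 motifs, and had no base in a peak in any library.

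The letters CCTCAG, the core of the motif bound by STRA8 with MEIOSIN, were found in the Rbm46, Dazl and Zglp1 promoters and in 26.8% of all promoters. Dazl carried it at 17 to 22 and at 35 to 40 bases after the start site, Rbm46 at -94 to -89 and, on the other strand, at -16 to -11. The E-box CACGTG was found in the Rbm46 promoter, at -34 to -29, and in the Zglp1 promoter, at -125 to -120, and in 7.15% of all promoters. In Zglp1 the E-box shares bases with a half-site AGGTCA on the other strand, at -121 to -116; that half-site of retinoic acid receptors occurs in 16.3% of all promoters. Among the 5 promoters matched, Zglp1 alone had the GATA motif GATAA, on the other strand at -51 to -47, against 25.4% of all promoters. The NFY motif CCAAT was found in Meioc, Rbm46 and Dazl and in 37.4% of all promoters, and the SP and KLF motif GGGCGG in Meioc and Zglp1 and in 35.7%. The letters TTCGCGC, the only form searched for E2F6, were in none of the 5 and in 1.59% of all promoters. Other forms of the E2F6 motif were not searched, so this does not show that E2F6 sites are absent. These matches describe the letters of the window and do not show binding.

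Every one of the 7 genes had a peak at its start in both controls and in both Snf5 CKO libraries, and none was lost or gained. For Ythdc2 and Dmrt1, whose strand was not given, the limit with peaks was called the start. Kept means that each of the 4 libraries had a peak overlapping the 1 kb around the start or end by at least 1 bp, lost that only the 2 controls did, and gained that only the 2 Snf5 CKO libraries did. Over all protein-coding genes 55% were kept, 2.97% lost and 0.187% gained. At the start itself, or at either end where no strand was given, 53.7% were kept. No gene of the 7 had a peak at its opposite end, except Dazl, where Snf5 CKO 1 alone had a peak of 210 bp, at chromosome 17, 50278773 to 50278982, 411 bp beyond the lower-coordinate limit. With 2 libraries against 2, the smallest two-sided exact permutation p is 0.333, so no difference below can pass 0.05, and values are given with their order across libraries instead. A peak that is weaker in every cell and one that is open in fewer cells cannot be told apart in such bulk libraries.

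The peaks at the gene starts were shorter in both Snf5 CKO libraries than in both controls for 5 of the 7 genes, Meioc, Rbm46, Dazl, Dmrt1 and Bnc2, and for none were both longer. This share was near the background: among the 11747 genes with a start peak in all 4 libraries, 78.2% had shorter peaks in both Snf5 CKO libraries and 1.15% had longer ones. Of these genes 9435 had a known strand. For the others, the lengths of peaks at both gene limits were added together. Compared number by number, Snf5 CKO 1 with Control 1 and Snf5 CKO 2 with Control 2, 5 of the 7 and 83.9% of the 11747 genes were shorter in both pairs. The median log2 length ratio, knockout over control, was -0.41 over the 7 genes and -0.41 over all 11747. The 7 genes ranged from -1.18 for Dmrt1 to -0.13 for Ythdc2.

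**Figure D1:**
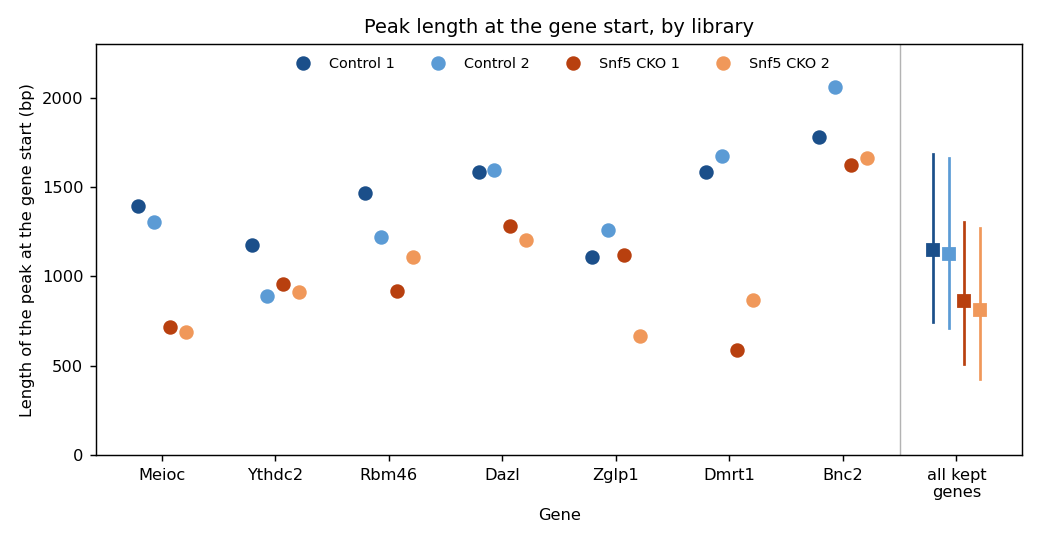
Length in bp of the peak at each gene start (vertical axis) for the 7 genes in each library (points, 1 per library); squares and lines on the right give the median and the range from the 10th to the 90th percentile over all 11747 genes with a start peak in all 4 libraries. The Snf5 CKO points of Meioc and Dmrt1 lie well below the control points, whereas those of Ythdc2 lie among them.

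Among the genes of the RNA-binding complex, Meioc differed the most. Meioc (gene identifier 268491, chromosome 11, 102665351 to 102682240) encodes a coiled-coil protein that binds YTHDC2. Its start peak measured 1394 and 1302 bp in Control 1 and 2, and 718 and 691 bp in Snf5 CKO 1 and 2. The Snf5 CKO values lay below both control values, with means of 1348 ± 65.1 bp and 704 ± 19.1 bp (SD, n = 2 each). The log2 ratio was -0.94, and 10.2% of the kept genes had a lower one. The missing length lay inside the gene: the peak reached 1142 and 1042 bp past the gene start in the controls and 526 and 500 bp in Snf5 CKO 1 and 2, while on the outer side it reached 251 and 259 bp against 191 and 190 bp. These distances run from the annotated gene limit, whereas motif positions run from the start site of the promoter. That start site lies 234 bp inside the limit at Meioc and 29 bp inside it at Rbm46. The CCAAT and GGGCGG matches printed above lie in the part that all 4 libraries covered.

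Rbm46 (gene identifier 633285, chromosome 3, 82836521 to 82876512) encodes an RNA-binding protein that joins the other members of the complex. Its start peak measured 1469 and 1223 bp in Control 1 and 2 and 920 and 1107 bp in Snf5 CKO 1 and 2. The groups did not overlap, and the log2 ratio of -0.41 was close to the median of all kept genes, with 49.5% of genes below it. Both edges lay nearer the start in Snf5 CKO, at 295 and 434 bp outside the gene against 703 and 459 bp, and at 624 and 672 bp inside it against 765 and 763 bp.

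Ythdc2 (gene identifier 240255, chromosome 18, 44827730 to 44889720) encodes a helicase with a YTH domain, the fold that reads m6A on RNA. Its peak lay wholly inside the gene, past its lower-coordinate limit, in the 4 libraries. It measured 1176 and 889 bp in Control 1 and 2, and 956 and 913 bp in Snf5 CKO 1 and 2. The Snf5 CKO values fell between those of the controls, and the log2 ratio of -0.13 had 86.6% of kept genes below it. Without Control 1 the ratio was 0.07 and the Snf5 CKO peaks were the longer ones, whereas without Control 2 it was -0.33 and they were the shorter ones.

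Dazl (gene identifier 13164, chromosome 17, 50279393 to 50293620), the translational regulator of competence, had start peaks of 1582 and 1594 bp in the controls and 1282 and 1202 bp in Snf5 CKO 1 and 2. The groups did not overlap, with means of 1588 ± 8.49 bp and 1242 ± 56.6 bp (SD, n = 2 each) and a log2 ratio of -0.36. Here the groups were apart on the outer side and overlapped on the inner side: the peak reached 595 bp outside the gene in both controls and 274 and 230 bp in Snf5 CKO, while it reached 986 and 998 bp into the gene in the controls and 1007 and 971 bp in Snf5 CKO. The printed Dazl promoter falls across this outer side, and the bases without a peak in Snf5 CKO 2 are its first ones, farthest from the start site.

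**Figure D2:**
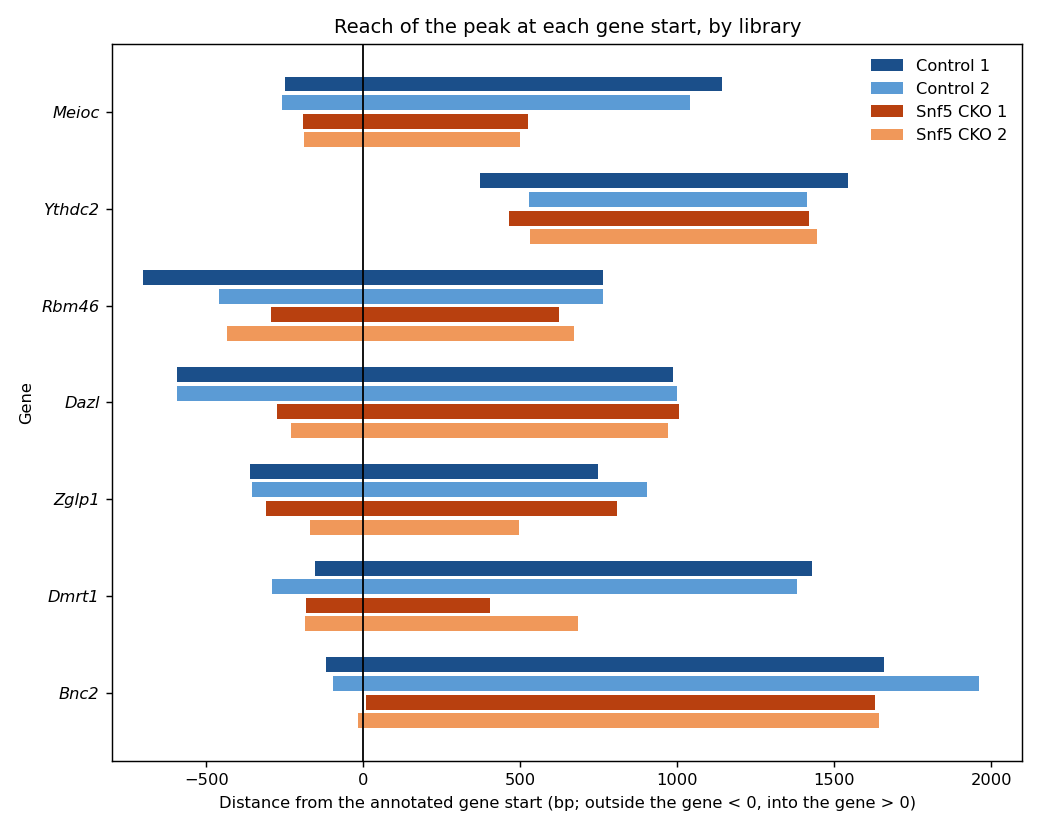
Extent of the start peak of each gene in each library (bars), as distance in bp from the annotated gene start (horizontal axis; negative is outside the gene, positive is inside it). In Snf5 CKO the Meioc and Dmrt1 peaks end earlier inside the gene, the Dazl peak begins later outside it, and the Ythdc2 peaks end within the range of 1415 to 1545 bp in all libraries.

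Of the 3 transcription factor genes, Zglp1 was the one whose groups overlapped in length. Zglp1 (gene identifier 100009600, chromosome 9, 21062393 to 21067093) had start peaks of 1110 and 1260 bp in the controls, and 1118 and 665 bp in Snf5 CKO 1 and 2. Only the last of these was low. The log2 ratio of -0.46 moved to -0.08 without Snf5 CKO 2 and to -0.83 without Snf5 CKO 1. On the outer side the Snf5 CKO peaks reached 310 and 169 bp against 362 and 355 bp in the controls, and on the inner side the groups overlapped.

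Dmrt1 (gene identifier 50796, chromosome 19, 25505618 to 25604328) had the largest relative difference of the 7 at its start. The peak measured 1582 and 1674 bp in Control 1 and 2, and 590 and 871 bp in Snf5 CKO 1 and 2. The groups did not overlap, with means of 1628 ± 65.1 bp and 730 ± 199 bp (SD, n = 2 each) and a log2 ratio of -1.18, below which lay 5.40% of the kept genes. As at Meioc, the difference was on the side inside the gene, which the peak covered to 1428 and 1383 bp in the controls and to 405 and 684 bp in Snf5 CKO. The outer reach of 153 and 290 bp in the controls held the Snf5 CKO values of 184 and 186 bp between them. When only bases inside the 1 kb window were counted, the ratio was -0.77, since much of the difference lay farther in. With a window of 2 kb it was -0.88, as the kept region 1500 bp beyond the higher-coordinate limit was then added to the length.

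Bnc2 (gene identifier 242509, chromosome 4, 84266804 to 84676029) had the longest start peaks, of 1779 and 2059 bp in the controls and 1623 and 1661 bp in Snf5 CKO 1 and 2. The groups did not overlap, and the log2 ratio of -0.22 was smaller in size than in most kept genes, with 76.3% of them below it. Without Control 2 it was -0.12, and without Control 1 -0.33.

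Over the 7 genes, the inner edge lay nearer the start in both Snf5 CKO libraries at Meioc, Rbm46, Dmrt1 and Bnc2, and the outer edge at Meioc, Rbm46, Dazl, Zglp1 and Bnc2. These are 4 and 5 of 7. Among 9435 genes of known strand with a start peak in all 4 libraries the shares were 70.6% for the inner edge and 55.5% for the outer edge, and the median shifts of the Snf5 CKO mean were -155 bp and -90.0 bp. Inner shifts beyond the median were found at Dmrt1 (-861 bp), Meioc (-579 bp), Zglp1 (-174.5 bp) and Bnc2 (-174 bp). Outer shifts beyond the median were found at Dazl (-343 bp), Rbm46 (-216.5 bp), Zglp1 (-119 bp) and Bnc2 (-103 bp).

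**Figure D3:**
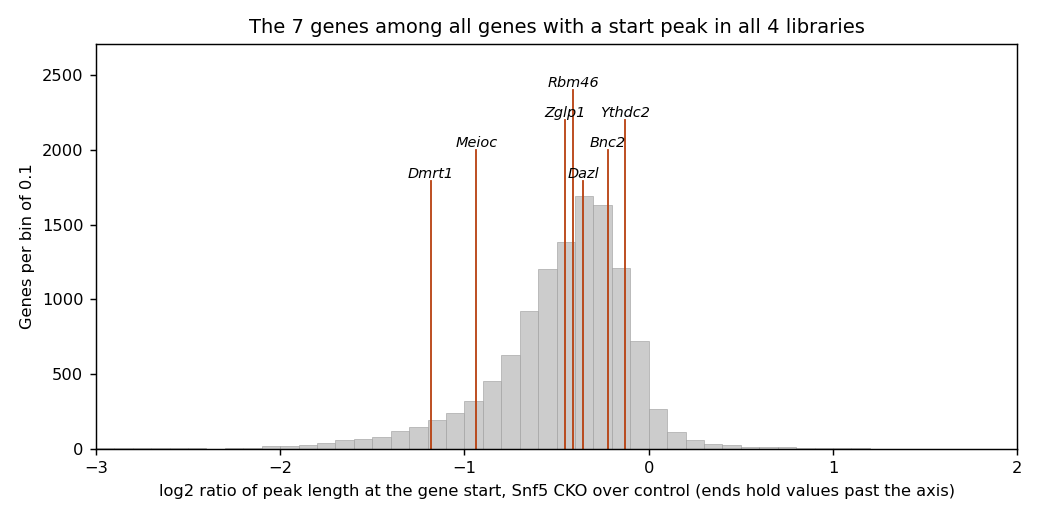
Number of genes (vertical axis) by log2 ratio of start peak length, Snf5 CKO over control (horizontal axis, bins of 0.1), over the 11747 genes with a start peak in all 4 libraries, with the 7 genes as lines. Dmrt1 at -1.18 and Meioc at -0.94 lie in the lower tail, and the other 5 lie between -0.46 and -0.13.

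Fold enrichment is the authors' own value for each peak, a mean over the peak against local background, and serves here to rank genes within a list only. In each list Ythdc2, Rbm46 and Meioc held the 3 highest start folds of the 7 genes and Dazl the middle one, and Zglp1, Dmrt1 and Bnc2 the 3 lowest. In Control 1 these were 5.56 for Ythdc2, 5.21 for Meioc, 5.14 for Rbm46, 4.82 for Dazl, 3.84 for Zglp1, 3.81 for Dmrt1 and 3.70 for Bnc2. In Snf5 CKO 2 they were 7.54 for Meioc, 6.01 for Ythdc2, 5.79 for Rbm46, 5.14 for Dazl, 4.29 for Dmrt1, 4.16 for Zglp1 and 3.63 for Bnc2. In Control 2 the folds ran from 3.53 for Bnc2 to 6.04 for Ythdc2, and in Snf5 CKO 1 from 3.65 for Zglp1 to 6.72 for Rbm46. The median start fold of all kept genes was 4.77 for Control 1, 4.70 for Control 2, 5.35 for Snf5 CKO 1 and 5.17 for Snf5 CKO 2, so the 3 transcription factor genes lay below the median of each list and the 3 genes of the RNA-binding complex above it.

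Around the 7 genes, the peaks of the 4 lists merged into 35 regions, of which 13 were kept, 3 were lost and 5 were gained. A merged region joins peaks that overlap by at least 1 bp and is called by the same rule as a gene. The other 14 regions had a peak in 1 library alone, against 44.3% of the series' regions. Control 1 held 6 of them (14.1% in the series), Control 2 held 5 (6.9%), Snf5 CKO 1 held 3 (21.3%) and Snf5 CKO 2 held 0 (2.07%). Over all 66058 merged regions 29.4% were kept, 7.58% lost and 5.08% gained, beside 37.1%, 8.57% and 14.3% near the 7 genes. These counts moved with the libraries and the flank: 8 regions were lost without Control 1 and 9 without Control 2, with 5 gained in each case, 8 were gained without Snf5 CKO 2, and 1 was lost and 2 were gained with 10 kb either side. Of the 5 gained regions 3 lay at Dmrt1 and 2 at Ythdc2, and all lay more than 1 kb from any protein-coding gene end, where 6.29% of the series' regions were gained and 8.14% lost. Rbm46, Dazl, Zglp1 and Bnc2 had no lost or gained region.

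Dmrt1 had the most regions of the 7 genes, with 4 kept, 1 lost, 3 gained and 4 single-library regions. Upstream of its start, the controls had peaks at chromosome 19, 25486655 to 25487172 (Control 1, 518 bp) and 25486689 to 25487175 (Control 2, 487 bp), with folds of 4.41 and 3.65, and Snf5 CKO had none there. Beside them, Snf5 CKO 1 and 2 had peaks of 418 and 294 bp within 25487380 to 25487797, with folds of 3.0 and 3.01, and no control had one. A little nearer the gene, Snf5 CKO 1 and 2 had peaks of 1642 and 1382 bp within 25488179 to 25489820, with folds of 3.46 and 3.63, again with none in the controls. The control peaks and the Snf5 CKO peaks thus lay side by side without overlap, at least 15798 bp from the gene. The gap from 25487175 to 25487380 was just over the 200 bp across which peaks were joined in an alternative. Joined, the lost region and the gained region beside it would be a single kept region. The lost call ended when peaks needed a -log10 q of at least 3, and the gained calls did not.

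Inside Dmrt1, 18731 bp past its start, the last gained region, at 25524079 to 25524619, was 541 bp long in Snf5 CKO 1 and 361 bp long in Snf5 CKO 2. It had the highest folds of all gained regions near the 7 genes, 6.35 and 6.42, with -log10 q of 12.1 and 9.43 in the authors' lists, and no control peak lay in it. At least 3 gained regions in the gene plus 20 kb were found at 74 genes (0.338%), and at 1.74% of the 2468 genes at least as long as Dmrt1. This cut was the count of Dmrt1 itself, so the shares only place it among genes. The kept regions of the locus were the start of Dmrt1, a region 1500 bp beyond its higher-coordinate limit with 591 and 506 bp in the controls and 565 and 332 bp in Snf5 CKO, and 2 regions at the ends of its paralog Dmrt3. The Dmrt3 region nearer Dmrt1 measured 1302 and 1450 bp in the controls and 1155 and 1301 bp in Snf5 CKO. The one at the other end of Dmrt3 measured 712 and 864 bp in the controls and 300 and 267 bp in Snf5 CKO.

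Ythdc2 had no lost region and 2 gained ones. The first lay in its gene body, 42212 bp past the start at chromosome 18, 44869489 to 44870395, with 907 bp and a fold of 5.47 in Snf5 CKO 1 and 349 bp and a fold of 4.43 in Snf5 CKO 2. The second lay 18741 bp beyond the gene, with 200 and 230 bp and -log10 q of 1.13 and 1.66, among the weakest peaks of the lists. It was no longer called with a -log10 q of at least 3 or with lists of the same length. At least 2 gained regions, a cut taken from Ythdc2 itself, were found at 1.71% of all genes. The end of Mcc, the neighbouring gene, was kept, with 702 and 715 bp in the controls and 761 and 516 bp in Snf5 CKO.

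At Meioc the difference went the other way, with 2 lost and no gained regions. Both lost regions lie in the neighbouring gene Ccdc43. The first, in the Ccdc43 gene body at chromosome 11, 102689906 to 102690605, measured 498 and 637 bp in Control 1 and 2, with folds of 3.67 and 4.01. The second, across the higher-coordinate end of Ccdc43 at 102697387 to 102698171, 32428 bp from the Meioc start, measured 764 and 760 bp, with folds of 5.14 and 5.44. Snf5 CKO 1 and 2 had no peak in either, and each call held with a -log10 q of at least 3 and with lists of the same length. Leaving out 1 library cannot undo a lost call, so that alternative does not bear on it. At least 2 lost regions, a cut taken from Meioc itself, were found at 5.58% of all genes.

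**Figure D4:**
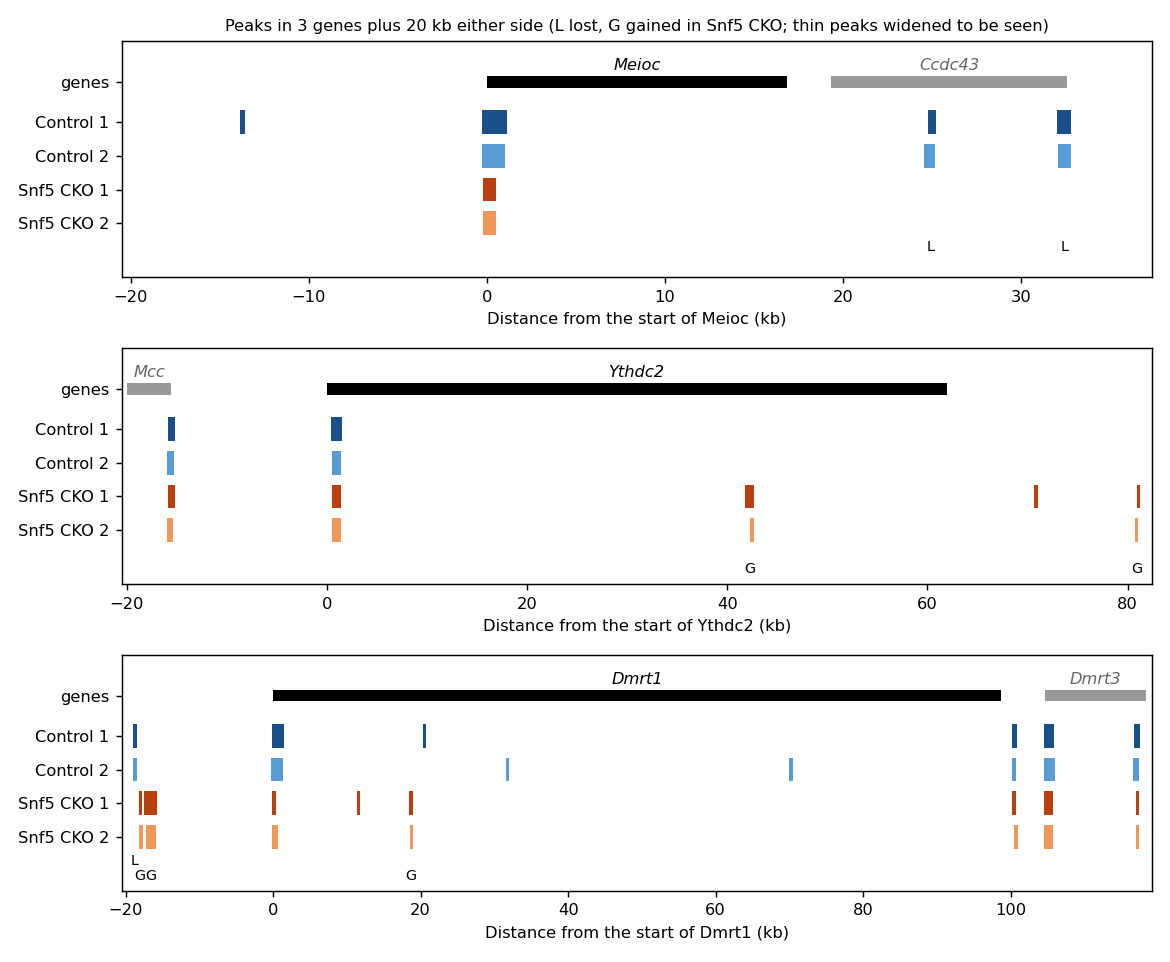
Peaks of each library (coloured bars) in Meioc, Ythdc2 and Dmrt1 plus 20 kb either side, as distance in kb from the gene start (horizontal axis), with the genes as black bars and neighbouring protein-coding genes as grey bars; narrow peaks are widened to be visible, and L marks lost and G gained regions. Meioc has 2 lost regions in Ccdc43, Ythdc2 has 2 gained regions, and Dmrt1 has 3 gained regions and 1 lost.

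The remaining 4 genes showed kept regions and single-library peaks. Bnc2 had a kept region deep in the gene body, 130408 bp past the start at chromosome 4, 84545087 to 84546155, with 1069 and 961 bp in Control 1 and 2 and 885 and 710 bp in Snf5 CKO 1 and 2. The groups did not overlap there either. At Zglp1 the second kept region lay at the end of the neighbouring gene Fdx2, with 842 and 1016 bp in the controls and 655 and 486 bp in Snf5 CKO. Beyond the 3′ limit of Dazl, Control 1 and Control 2 each had 1 short peak, of 213 and 292 bp, side by side without overlap; joined across gaps of up to 200 bp they would count as 1 more lost region.

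Bases covered by peaks were also counted in the gene plus 20 kb. They were lower in both Snf5 CKO libraries at 5 of the 7 genes, Meioc, Rbm46, Dazl, Zglp1 and Bnc2. Over the 16316 genes with a covered base in all 4 libraries 67.3% were lower and 3.38% higher in both. Meioc stood lowest, with 2941 and 2699 bp in Control 1 and 2 and 718 and 691 bp in Snf5 CKO 1 and 2, and a log2 ratio of -2.0, below which lay 1.37% of genes. In Snf5 CKO the start peak was the only peak in the locus. The control values of Meioc include the 2 lost regions in Ccdc43. With 10 kb either side the Meioc ratio was -1.44, and with 50 kb -1.97. The 10 kb flank still held the lost region in the Ccdc43 gene body. For the length of the Meioc start peak alone the ratio was -0.94. The log2 ratios of Rbm46 (-0.52), Dazl (-0.46), Zglp1 (-0.74) and Bnc2 (-0.39) are set against a median of -0.48 over all genes. With 1 library left out, Rbm46 ran from -0.76 (without Control 2) to -0.28 (without Control 1). Dazl ran from -0.61 (without Snf5 CKO 1) to -0.30 (without Snf5 CKO 2). With 50 kb either side the Dazl ratio was 0.07 and its groups overlapped, while Rbm46, Zglp1 and Bnc2 stayed lower in both. Zglp1 ran from -1.05 (without Snf5 CKO 1) to -0.43 (without Snf5 CKO 2), and Bnc2 from -0.46 (without Control 2) to -0.31 (without Control 1). Ythdc2 was the only one of the 7 with more covered bases in both Snf5 CKO libraries, 3075 and 2008 bp against 1878 and 1604 bp, a log2 ratio of 0.52, with 97.4% of genes below it. Its size rested on single libraries, at 0.21 without Snf5 CKO 1 and 0.83 without Snf5 CKO 2. That order ended when only peaks with a -log10 q of at least 3 were used. At Dmrt1, covered bases were 4964 and 5544 bp in the controls and 5418 and 4808 bp in Snf5 CKO, so the groups overlapped. That order moved with the setting: the log2 ratio was -0.04 here, -0.42 (lower in both) with 10 kb either side, 0.22 (higher in both) with 50 kb, and 0.08 (higher in both) with a -log10 q of at least 3. Without Control 1 it was -0.12 and without Snf5 CKO 1 -0.13, each lower in Snf5 CKO, and without Control 2 or Snf5 CKO 2 it was 0.04 and 0.05.

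**Figure D5:**
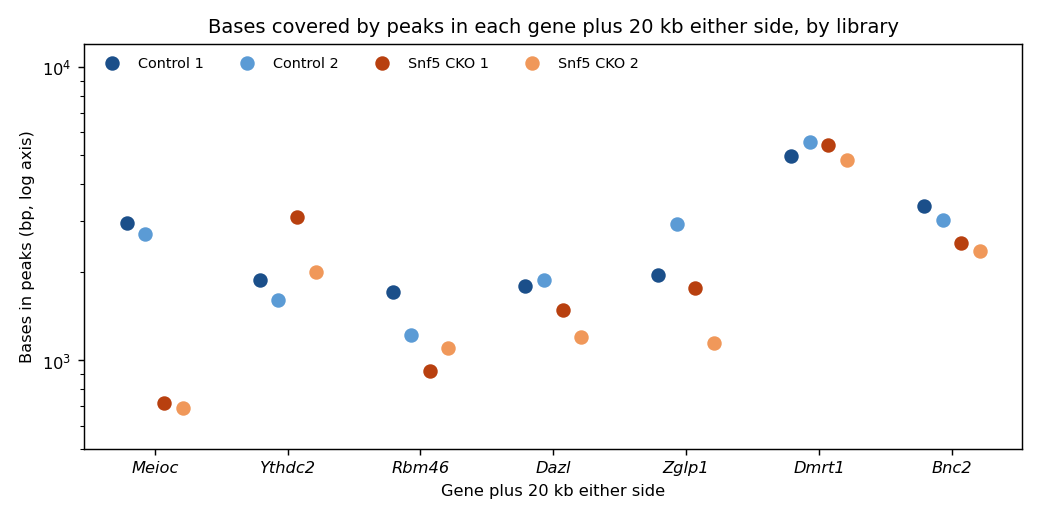
Bases covered by peaks in each gene plus 20 kb either side (vertical axis, bp, log axis), with 1 point per library. The Snf5 CKO points of Meioc, at 718 and 691 bp, lie far below its control points, which include peaks in Ccdc43. The Snf5 CKO points of Ythdc2 lie above its control points, and those of Dmrt1 overlap with its control points.

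Of 60 other genes of the same pathways, 47 were kept, 2 were lost and none was gained, against 55%, 2.97% and 0.187% of all protein-coding genes. The lost count was near the background. The 2 lost genes, Rarg and Rxrg, both encode retinoid receptors, and the lists were made with earlier results in view, so this is a description. Rarg had start peaks of 962 and 1383 bp and Rxrg of 661 and 455 bp in Control 1 and 2. Rara and Dmrtb1, a paralog of Dmrt1, had a peak in 3 libraries and none in Snf5 CKO 2. At the start, 40 of the 47 kept genes had shorter peaks in both Snf5 CKO libraries, near the 78.2% of all kept genes, and 1, the BMP target Id2, had longer ones, at 941 and 664 bp against 439 and 370 bp.

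By pathway, the genes that work with RNA like MEIOC and DAZL were kept at 11 of 14, with a median log2 length ratio of -0.29, against -0.41 for all kept genes. Genes of the BMP signal, which acts before ZGLP1, were kept at 14 of 17 with -0.54, and repressors of meiotic genes at 8 of 9 with -0.34. Paralogs of Dmrt1 and Bnc2 were kept at 6 of 7 with -0.55. Retinoic acid and meiotic entry genes were kept at 8 of 13 with -0.89. Of the meiotic entry pair, start peaks measured 1727 and 2182 bp in the controls against 726 and 864 bp in Snf5 CKO at Meiosin (listed as Bhmg1), where the groups did not overlap, and 1094 and 233 bp against 292 and 200 bp at Stra8, where they did. Windows at annotated gene limits can miss a start site inside a gene, so the 7 context genes without any peak there, among them Mettl3 and Dnmt1, cannot be called closed.

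Among the 47 kept genes of these lists, the one most like Meioc in start peak length over the 4 libraries was Uhrf1, a factor of DNA methylation upkeep, with 1413, 1399, 748 and 679 bp and a root mean square difference of 0.06 on the log2 scale. Dazl was most like Smad1 (0.06), Zglp1 most like Ccna2 (0.06), Rbm46 most like Xrn1 (0.12), Bnc2 most like Boll (0.13), Ythdc2 most like Ythdc1 (0.13) and Dmrt1 most like its paralog Dmrtc2 (0.15). With 4 values to a gene, this is a likeness of lengths only.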

How the data were processed

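The data are ATAC-seq peak lists of 4 libraries. Per the submitters' processing notes, the tools were MACS2 2.2.7.1, Picard 2.25.2, Bowtie2 2.4.2, Trim Galore 0.6.5 and SAMtools 1.10 on mm10; their roles, thresholds, duplicate treatment and any shift of read ends are unknown here. The authors deposited 1 broad peak list per library, with a score (10 times the −log10 q as a whole number), a fold enrichment over local background, and −log10 p and −log10 q for each peak. No read counts were used, so depth is unknown, and a called peak's length moves with depth and background.

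Peaks were placed on RefSeq genes of GRCm38.p6 with Python 3.11.15, numpy 2.4.6 and pandas 2.3.3, after the code was tested on simulated data. Gene strand came from the RefSeq promoter table, for 17492 of 21887 protein-coding genes; for the others, Ythdc2 and Dmrt1 included, windows at both gene limits were used, and both had peaks at the lower-coordinate limit only, called the start here. Groups came from the labels. The genes, lists, motifs and alternatives were chosen with earlier results of these data known. By rule, the text names all 7 genes, context genes that were lost, gained or open in 3 libraries, the context gene most like each of the 7 in start peak length, neighbours at a named region, Smarcb1 and markers. Id2, Mettl3 and Dnmt1 were named after their values were seen, and Stra8 and Meiosin for their known roles.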

Additional observations from a re-analysis of the deposited data

How the results depend on the processing

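All 7 genes were kept in every alternative except windows of 500 bp, which kept 6 because the Ythdc2 peak begins more than 500 bp inside the gene in Control 2 and Snf5 CKO 2. Leaving out 1 library cannot undo a kept call at a gene or a shorter order, so those counts could not fall there. The number with shorter start peaks was 5 with −log10 q of at least 3, with lists of the same length, with windows of 500 bp or 2 kb and by bases inside the window, and 5 to 6 when 1 library was left out. The q cut and the lists of the same length drop whole peaks and trim none. Every start peak of the 7 genes passed both, so these lengths and their order could not change there. The windows of 500 bp and 2 kb also took each touching peak at its full length. The median log2 length ratio was -0.43 with windows of 500 bp and -0.40 to -0.31 when 1 library was left out, the smallest in size without Snf5 CKO 2. With a gene plus 10 kb, 1 region was lost and 2 were gained; with 50 kb, 4 were lost and 8 gained. Leaving out 1 library gave 3 to 9 lost regions, with 8 without Control 1 and 9 without Control 2, and 5 to 8 gained, with 8 without Snf5 CKO 2, since fewer libraries had to share a call. With −log10 q of at least 3, 2 regions were lost and 4 gained, the Dmrt1 lost region and the weaker Ythdc2 gained region dropping out. Genes with fewer covered bases numbered 4 to 6 over the alternatives run. No flagged result arose, since groups of 2 are too small for a check of single libraries, and the depth behind a missing peak is unknown.

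Libraries of both groups share the replicate numbers 1 and 2. Same-numbered libraries did not deviate together in start peak length (correlation -0.01 across 11747 genes). Whether they were collected or handled together is unknown, and a correlation from 2 libraries per group cannot tell. With the replicate block, each Snf5 CKO library below the control of its number, 5 genes had shorter start peaks (83.9% of all kept genes) and 5 had fewer covered bases.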
